A study of Homo sapiens with 6 samples.

Results

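The 34 genes described here encode the machinery of the G1/S transition and of DNA replication, and were taken from a fixed list of symbols. All 34 matched 1 Ensembl identifier each among the 60483 genes counted, and all 34 passed the filter on low counts that left 15025 genes for testing. RNA sequencing counts came from HepG2, a human line established from a liver tumour, which had received FTO siRNA or control siRNA. FTO encodes an enzyme that takes methyl groups off N6-methyladenosine in RNA. The FTO siRNA group held 3 libraries and the control siRNA group held 3, each numbered 1 to 3, from cells between passages 16 and 19 grown in RPMI-1640 with serum. The labels name no siRNA sequence, dose or hour of harvest. They do not state whether libraries of the same group are separate cultures, so p-values reflect only the spread among these 6 samples, and that spread may be technical.

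Replication begins when the origin recognition complex, CDC6 and CDT1 load the ring of MCM2 to MCM7 onto origins in G1. At the start of S phase, cyclin E with CDK2 releases E2F transcription factors from the RB protein and helps to activate the loaded helicase through MCM10, CDC45 and the GINS complex. Polymerase alpha with primase then lays down primers, polymerases delta and epsilon extend them on the PCNA clamp loaded by the RFC complex, and ribonucleotide reductase and thymidylate synthase supply deoxynucleotides. Many of these genes are known targets of E2F and are transcribed mostly in late G1 and S phase. In bulk RNA, fewer cells in S phase and less of a transcript per cell cannot be told apart.

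Because E2F sites are known at many of these genes, the RefSeq promoter windows of GRCh38.p14, from 250 bases before to 50 bases after each gene's start, were searched on both strands for 4 E2F words, TTTCCCGC, TTTCGCGC, TTTGCCGC and TTTGGCGC. Of 31 members with a window, 16 (51.6%) held at least 1 word, as did 556 of 10887 windows (5.11%) of tested genes that are no members and 908 of 27305 windows (3.33%) in all. The windows below belong to the 3 members that fell after FTO siRNA (MCM6, POLA1 and POLE) and to the members with the lowest (RRM2) and the highest (E2F1) log2 fold change. Capitals mark the E2F words on either strand, and overlapping words on opposite strands run together.
MCM6, chr2:135876394-135876693 (minus strand): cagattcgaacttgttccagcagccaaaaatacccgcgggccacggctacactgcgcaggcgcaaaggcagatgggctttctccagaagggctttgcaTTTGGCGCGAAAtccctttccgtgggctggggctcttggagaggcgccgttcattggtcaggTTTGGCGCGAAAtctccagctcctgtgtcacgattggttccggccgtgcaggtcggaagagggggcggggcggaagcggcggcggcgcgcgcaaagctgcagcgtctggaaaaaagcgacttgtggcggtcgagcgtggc
POLA1, chrX:24693668-24693967 (plus strand): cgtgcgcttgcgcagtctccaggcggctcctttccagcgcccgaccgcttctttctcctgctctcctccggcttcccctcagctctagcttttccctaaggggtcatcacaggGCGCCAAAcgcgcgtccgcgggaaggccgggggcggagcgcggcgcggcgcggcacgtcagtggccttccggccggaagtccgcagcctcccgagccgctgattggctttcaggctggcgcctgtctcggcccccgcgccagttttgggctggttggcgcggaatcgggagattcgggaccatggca
POLE, chr12:132687293-132687592 (minus strand): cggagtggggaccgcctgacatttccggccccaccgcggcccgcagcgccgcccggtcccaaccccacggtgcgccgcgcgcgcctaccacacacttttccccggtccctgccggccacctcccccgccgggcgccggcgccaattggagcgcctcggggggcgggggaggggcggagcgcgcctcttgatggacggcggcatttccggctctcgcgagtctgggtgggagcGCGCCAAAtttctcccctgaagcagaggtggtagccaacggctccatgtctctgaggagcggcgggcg
RRM2, chr2:10122489-10122788 (plus strand): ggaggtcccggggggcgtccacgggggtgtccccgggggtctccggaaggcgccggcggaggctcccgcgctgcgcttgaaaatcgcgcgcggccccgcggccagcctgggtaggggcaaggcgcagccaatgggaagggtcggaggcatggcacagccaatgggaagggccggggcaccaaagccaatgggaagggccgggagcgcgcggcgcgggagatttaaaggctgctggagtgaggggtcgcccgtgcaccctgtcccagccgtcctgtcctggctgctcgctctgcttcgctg
E2F1, chr20:33686336-33686635 (minus strand): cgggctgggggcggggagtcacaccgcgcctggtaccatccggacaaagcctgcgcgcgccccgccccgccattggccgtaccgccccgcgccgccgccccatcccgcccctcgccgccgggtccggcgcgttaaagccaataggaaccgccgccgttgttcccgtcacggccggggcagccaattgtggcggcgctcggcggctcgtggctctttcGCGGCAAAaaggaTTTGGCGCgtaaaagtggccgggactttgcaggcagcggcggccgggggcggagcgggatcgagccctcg
The MCM6 window held 4 words, which lie as 2 overlapping pairs, and the E2F1 window held 2. POLA1 and POLE held 1 each, and RRM2 held none of the 4 E2F words on either strand. The median log2 fold change was -0.40 over the 16 members with a word and -0.31 over the 15 without one, a description with no test. The CCAAT box, searched as CCAAT, occurred in 19 of 31 member windows (61.3%) and in 36.7% of the windows of other tested genes. The CHR element, searched as TTTGAA or TTCGAA, occurred in 2 of 31 (6.45%) and in 11.7% of the others.

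Total counts lay between 16407912 and 18390953 in the FTO siRNA libraries and between 15713279 and 16739978 in the control siRNA libraries. A floor of 3 counts corresponds to at most 0.191 CPM (counts scaled to library size), and the lowest member count in any library was 119; the floor covers counting error only. FTO itself had 11.2, 14.5 and 5.21 CPM after FTO siRNA 1, 2 and 3, against 40.8, 37.96 and 38.8 CPM in the controls, with a log2 fold change of -1.93 ± 0.32 (adjusted p = 0.00932 in edgeR's quasi-likelihood test). All 10 hepatocyte markers listed were detected in every library, and their summed level was 15809 to 27927 CPM after FTO siRNA and 23072 to 33048 CPM after control siRNA. All 10 had a negative log2 fold change, where 46.5% of all genes tested had. None of the 10 had an adjusted p under 0.05 in edgeR's quasi-likelihood test. On the first principal component (56.6% of the variance) FTO siRNA 1, 2 and 3 lay at -35.5, -21.2 and -50.6. Controls 1, 2 and 3 lay at 40.4, 36.2 and 30.8. FTO siRNA 3 stood apart from the other FTO siRNA libraries on the second component (28.9% of the variance), at -45.9 against 37.7 and 21.1. In FTO siRNA 3, 27140 genes had a count, against 24814 and 24927 in FTO siRNA 1 and 2. Transcripts known from other cell types also differed between the groups. Summed over immunoglobulin and T cell receptor constant genes there were 299, 346 and 336 counts after FTO siRNA 1, 2 and 3, and 0, 0 and 2 counts in the controls. Of 12 immune markers none was at 0 in any FTO siRNA library and 3 to 5 were at 0 in each control, and PTPRC, the pan-leukocyte marker, had 20 counts in each FTO siRNA library and 0, 1 and 1 in the controls. The summed immune list, most of it LYZ, was 81.2 to 114 CPM after FTO siRNA and 51.5 to 102 CPM after control siRNA. Of these 12 immune markers, 6 of the 8 tested rose, and of 8 fibroblast markers 2 of the 6 tested rose. Over all genes tested 7.53% rose. PTPRC, CD3D, NKG7, GNLY and TRAC had 0 to 6 counts in each control. They passed the filter on low counts only through the FTO siRNA libraries, so the filter favoured immune markers that rose. The summed fibroblast level was 631 to 1134 CPM after FTO siRNA and 337 to 616 CPM after control siRNA. The 4 endothelial markers summed to 14.9 to 23.5 CPM after FTO siRNA and 20.3 to 25.5 CPM after control siRNA, and KDR was at 0 in every library. The part of these transcripts in the results on the replication genes was not tested.

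After FTO siRNA, 32 of the 34 replication genes (94.1%) had lower mean levels than after control siRNA, where 46.5% of all genes tested had. Of the 32, 3 were past the threshold, and none of the 34 rose. The polymerase alpha catalytic subunit gene POLA1, the polymerase epsilon catalytic subunit gene POLE and the helicase subunit gene MCM6 fell to between 59.6% and 66.3% of the control mean. The members that fell make up 8.82% of the 34, where 3.83% of all genes tested fell. No member rose, where 7.53% of all genes tested did. At an unadjusted p under 0.05, 10 members were lower, where 11.5% of genes tested were, and none was higher, where 16.4% were. DESeq2 called 5 members lower (MCM2, MCM6, POLA1, POLE and RFC5), where it called 6.84% of genes lower and 9.86% higher. The same 3 members were called in limma-voom, where 3.75% of genes were lower and 6.72% higher, and neither tool called a member higher. The median log2 fold change was -0.37 over the members and 0.04 over all genes tested. Fold changes are log2 of FTO siRNA over control siRNA with their standard error, and adjusted p-values come from edgeR's quasi-likelihood test with Benjamini-Hochberg adjustment over all genes tested at a threshold of 0.05. For 19 members (55.9%) the 3 FTO siRNA values lay below all 3 control values, where 17.4% of all genes tested did so. No member had all its FTO siRNA values above the controls, where 19.2% of genes tested did so.

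**Figure D1:**
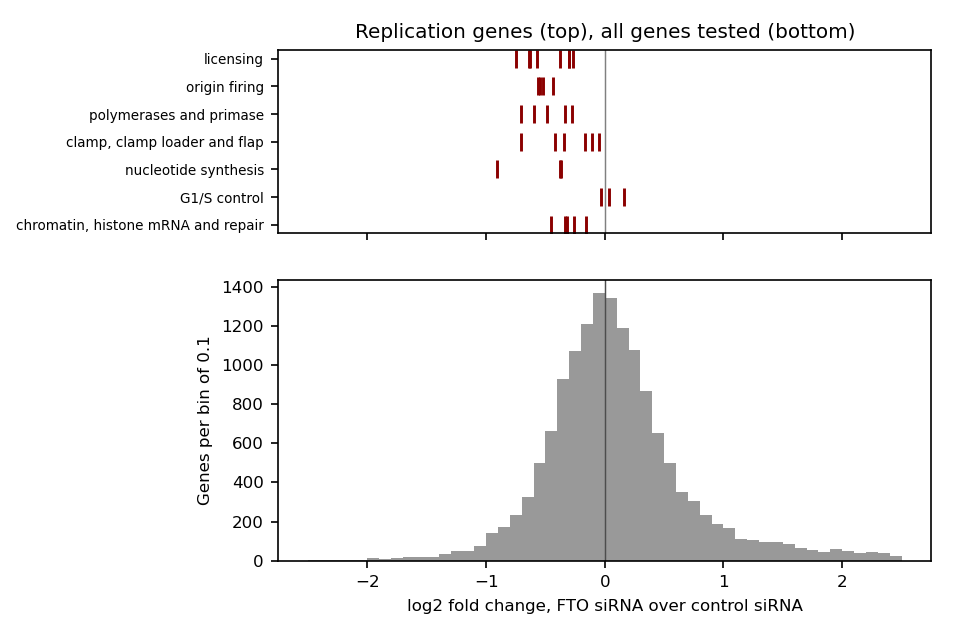
The upper panel marks the log2 fold change (FTO siRNA over control siRNA) of each of the 34 replication genes by role, and the lower panel counts all genes tested per bin of 0.1 between -2.5 and 2.5. The members run from -0.91 to 0.16, and the median over all genes tested is 0.04.

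The FTO siRNA libraries differed from one another more than the controls did. The members took 0.409%, 0.421% and 0.266% of all counts in FTO siRNA 1, 2 and 3, against 0.491%, 0.485% and 0.498% in controls 1, 2 and 3. FTO siRNA 3 had the lowest level of the 6 libraries for 33 of the 34 members (97.1%), where it was lowest for 28.1% of all genes tested. Relative to the control mean, the median member lay at -0.16, -0.17 and -0.94 on the log2 scale in FTO siRNA 1, 2 and 3. In FTO siRNA 1 and 2, 22 and 24 members lay below every control (64.7% and 70.6%), where 37.5% and 35.8% of all genes tested did. In FTO siRNA 3 all 34 did, where 39.5% of genes tested did. The coefficient of variation was higher among the FTO siRNA libraries than among the controls for all 34 members, with medians of 28.9% and 4.60%. The wider spread was not limited to the members. Between pairs of libraries over all genes, chi-square over degrees of freedom was 20.4, 118 and 82.6 within the FTO siRNA group. Within the controls it was 8.45, 15.4 and 11.4.

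**Figure D2:**
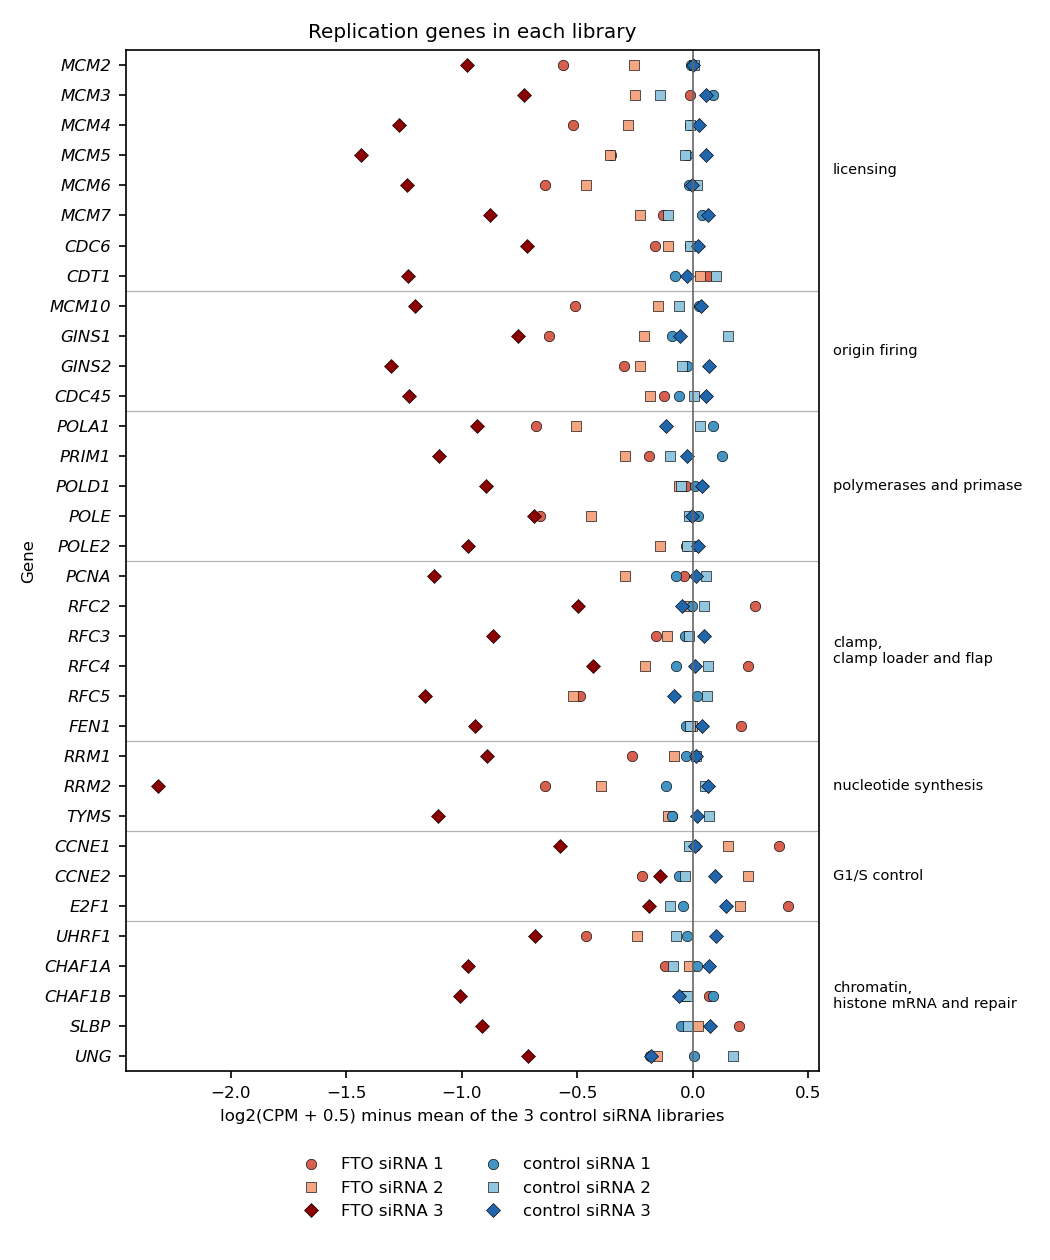
Each row is a replication gene and each point is a library, placed by its log2(CPM + 0.5) minus the mean of the 3 control siRNA libraries. The dark red diamonds of FTO siRNA 3 lie furthest left in every row but CCNE2, with medians of -0.16, -0.17 and -0.94 in FTO siRNA 1, 2 and 3.

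Without FTO siRNA 3, 9 members fell (26.5%), where 14.1% of all 15290 genes tested fell. None rose, where 15.9% of genes tested did. The 9 were MCM2, MCM4, MCM5, MCM6, POLA1, POLE, RFC5, RRM2 and UHRF1, so POLA1, POLE and MCM6 were called again. The median log2 fold change over the members without FTO siRNA 3 was -0.19. Lower means were found for 26 of 34 members, where 7690 of 15290 genes tested had them. Without FTO siRNA 2, 5 members fell, where 3.31% of all genes tested fell. Without FTO siRNA 1 no member fell, where 2.1% of all genes tested did, and without control 1, 2 or 3 none fell, where 0.602%, 0.679% and 1.7% of all genes tested did.

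**Figure D3:**
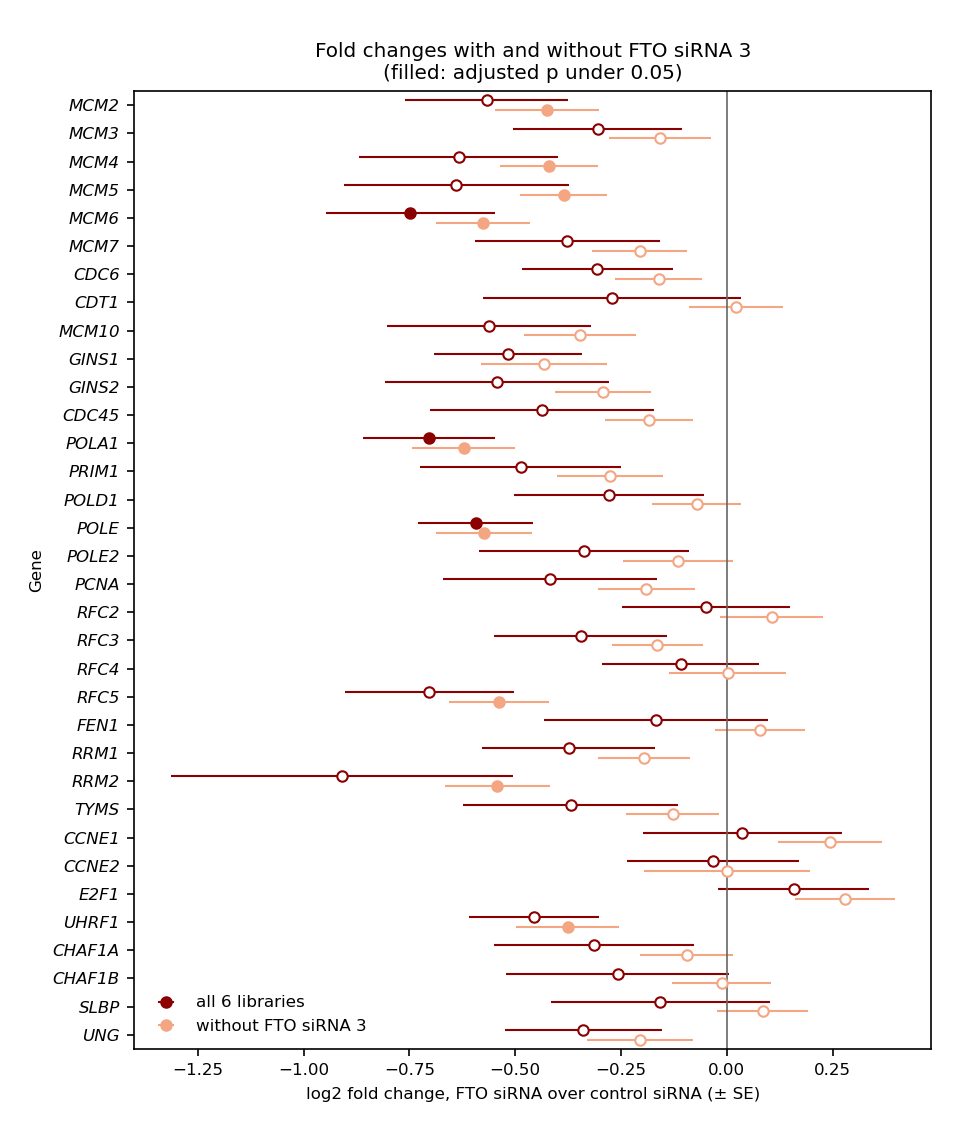
Points are log2 fold changes of FTO siRNA over control siRNA with their standard errors as bars, from all 6 libraries (dark) and without FTO siRNA 3 (light). Filled points passed the threshold, 3 with all libraries and 9 without FTO siRNA 3.

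The licensing genes build and load the helicase ring. All 8 had lower mean levels after FTO siRNA, 1 fell (MCM6), and 7 did not pass, with a median of -0.47. MCM6, a subunit of the ring, had 90.9, 103 and 59.8 CPM after FTO siRNA 1, 2 and 3, against 140.1, 144 and 142 CPM in the controls. The groups did not overlap, and MCM6 fell by 0.75 ± 0.20 (adjusted p = 0.0461). MCM4 and MCM5, subunits of the same ring, had the next lowest log2 fold changes of the group. MCM5 had 130.0, 129 and 61.1 CPM after FTO siRNA, against 163, 162 and 173 CPM in the controls (log2 fold change -0.64 ± 0.27, adjusted p = 0.16). MCM4 had 165, 195 and 97.9 CPM after FTO siRNA, against 235, 235 and 242 CPM in the controls (-0.63 ± 0.24, adjusted p = 0.122). MCM2 had 209, 258 and 156 CPM after FTO siRNA, against 306, 309 and 308 CPM in the controls (-0.57 ± 0.19, adjusted p = 0.0938), with 23.6% of its exon bases overlapping genes on the opposite strand. These 4 genes had the lowest log2 fold changes of the 8. For all 4 the FTO siRNA values lay below the controls, where 17.4% of all genes tested did so. Without FTO siRNA 3 all 4 fell (adjusted p from 0.00549 to 0.029) and no other licensing gene did, where 14.1% of all genes tested fell. MCM7, the ring subunit with the highest level per length, had 671, 626 and 399 CPM after FTO siRNA, against 754, 681 and 767 CPM in the controls (-0.38 ± 0.22, adjusted p = 0.298). MCM3 overlapped between groups, with 344, 291 and 209 CPM after FTO siRNA against 368, 313 and 360.2 CPM in the controls (-0.30 ± 0.20, adjusted p = 0.359).

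The loading factors lay nearer to their controls outside FTO siRNA 3. CDC6, the ATPase that recruits the ring to origins, had 109, 113 and 73.9 CPM after FTO siRNA, against 121, 121 and 124 CPM in the controls (-0.31 ± 0.18, adjusted p = 0.303). CDT1, its partner that brings the ring in, had 65.3, 63.7 and 26.2 CPM after FTO siRNA, against 59.0, 66.8 and 61.2 CPM in the controls. Only FTO siRNA 3 was below the controls for CDT1, and without it the log2 fold change was 0.02, against -0.27 ± 0.31 with all libraries. On a per-length scale, CPM per kilobase of the longest transcript, the 6 ring subunits ran from 22.6 (MCM6) to 183 (MCM7) after FTO siRNA and from 36.1 (MCM5) to 238 (MCM7) after control siRNA.

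The products of the 4 origin firing genes turn the loaded ring into a working helicase. All 4 had FTO siRNA values below every control, where 17.4% of all genes tested did. None passed the adjusted threshold. At an unadjusted p under 0.05, 2 were lower, where 11.5% of all genes tested were. The median of the 4 was -0.53. GINS1, a subunit of the GINS complex, had 80.6, 107 and 73.3 CPM after FTO siRNA, against 117, 138 and 119 CPM in the controls (-0.52 ± 0.18, adjusted p = 0.0936). MCM10, which helps the helicase to start, had 76.2, 97.8 and 47.0 CPM after FTO siRNA, against 111, 104 and 111 CPM in the controls (-0.56 ± 0.24, adjusted p = 0.17). FTO siRNA 3 was the lowest for both, and FTO siRNA 2 was the nearest to the controls. GINS2 had 40.5, 42.6 and 19.9 CPM after FTO siRNA against 49.2, 48.4 and 52.5 CPM in the controls (-0.54 ± 0.26, adjusted p = 0.221). CDC45, the third partner of the working helicase, had 86.3, 82.5 and 39.9 CPM after FTO siRNA against 90.1, 94.3 and 97.9 CPM in the controls (-0.44 ± 0.27, adjusted p = 0.32).

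Among the polymerase and primase genes 2 of 5 fell, 3 did not pass, and the median was -0.49. POLA1, which starts each new strand together with primase, had 47.7, 53.8 and 39.8 CPM after FTO siRNA, against 81.4, 78.2 and 70.6 CPM in the controls. It fell by 0.70 ± 0.16 (adjusted p = 0.025). POLE, which copies the leading strand, had 121, 141 and 119 CPM after FTO siRNA, against 194, 189 and 191 CPM in the controls. It fell by 0.59 ± 0.14 (adjusted p = 0.0278), and without FTO siRNA 3 its log2 fold change was -0.57. For both genes the groups did not overlap, and for POLE FTO siRNA 1 and 3 lay close together. PRIM1, the primase catalytic subunit, had 32.8, 30.5 and 17.3 CPM after FTO siRNA, against 41.0, 35.0 and 36.8 CPM in the controls (-0.49 ± 0.24, adjusted p = 0.222), and 21.6% of its exon bases overlap other genes. POLE2, an accessory subunit of polymerase epsilon, had 20.3, 18.7 and 10.3 CPM after FTO siRNA against 20.8, 20.3 and 21.0 CPM in the controls (-0.34 ± 0.25, adjusted p = 0.415). POLD1, the catalytic subunit of polymerase delta, had 74.6, 72.9 and 40.7 CPM after FTO siRNA against 76.5, 73.4 and 78.2 CPM in the controls (-0.28 ± 0.22, adjusted p = 0.459). Outside FTO siRNA 3, POLE2 and POLD1 lay within 2 CPM of the nearest control. The calls of POLA1, POLE and MCM6 were each lost without control 1, 2 or 3 or without FTO siRNA 1, with adjusted p-values up to 0.117 for POLA1, 0.127 for POLE and 0.159 for MCM6. With GC and length trends removed POLE did not pass (adjusted p = 0.0655).

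None of the 6 genes of the clamp, its loader and flap removal passed the threshold, and their median was -0.26. RFC5, a small subunit of the clamp loader, came closest with 29.3, 28.7 and 18.2 CPM after FTO siRNA, against 41.9, 43.1 and 39.1 CPM in the controls. The groups did not overlap (-0.70 ± 0.20, adjusted p = 0.0569), and RFC5 fell without FTO siRNA 3 (-0.54, adjusted p = 0.00955), with 10.6% of its exon bases overlapping other genes. The other loader subunits lay higher. RFC3 had 57.1, 59.1 and 34.9 CPM after FTO siRNA against 62.5, 63.1 and 66.2 CPM in the controls (-0.34 ± 0.20, adjusted p = 0.309). RFC2 had 55.9, 45.7 and 32.6 CPM after FTO siRNA against 46.2, 47.9 and 44.7 CPM in the controls (-0.05 ± 0.20, adjusted p = 0.9). RFC4 had 68.2, 49.97 and 42.7 CPM after FTO siRNA against 54.8, 60.4 and 58.1 CPM in the controls (-0.11 ± 0.19, adjusted p = 0.747). FTO siRNA 1 was the highest of the 6 libraries for RFC2 and RFC4 and FTO siRNA 3 the lowest. PCNA, the clamp itself, had 303, 254 and 143 CPM after FTO siRNA against 296, 324 and 314 CPM in the controls (-0.42 ± 0.25, adjusted p = 0.318). FEN1, the nuclease that trims flaps between Okazaki fragments, had 299, 258 and 134 CPM after FTO siRNA against 254, 257 and 266 CPM in the controls (-0.17 ± 0.26, adjusted p = 0.724).

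The nucleotide synthesis genes included the member with the lowest log2 fold change, but none of the 3 passed. RRM2, the S phase subunit of ribonucleotide reductase, had 223, 263 and 69.2 CPM after FTO siRNA, against 320.3, 359 and 362 CPM in the controls. All FTO siRNA values lay below the controls, and FTO siRNA 3 lay lowest by a wide gap (-0.91 ± 0.40, adjusted p = 0.184). Without FTO siRNA 3 it fell by 0.54 ± 0.12 (adjusted p = 0.0111), with 4.91% of its 50-base words found in other genes and 20.2% of its exon bases overlapping another gene. RRM1, the large subunit of the enzyme, had 136, 154 and 87.7 CPM after FTO siRNA, against 159.9, 165 and 165 CPM in the controls (-0.37 ± 0.21, adjusted p = 0.274). TYMS, the thymidylate synthase, had 66.6, 65.6 and 32.7 CPM after FTO siRNA, against 66.5, 74.3 and 71.8 CPM in the controls (-0.37 ± 0.25, adjusted p = 0.385). The TYMS groups overlapped, and 46.6% of its exon bases overlap genes on the opposite strand, ENOSF1 among them.

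**Figure D4:**
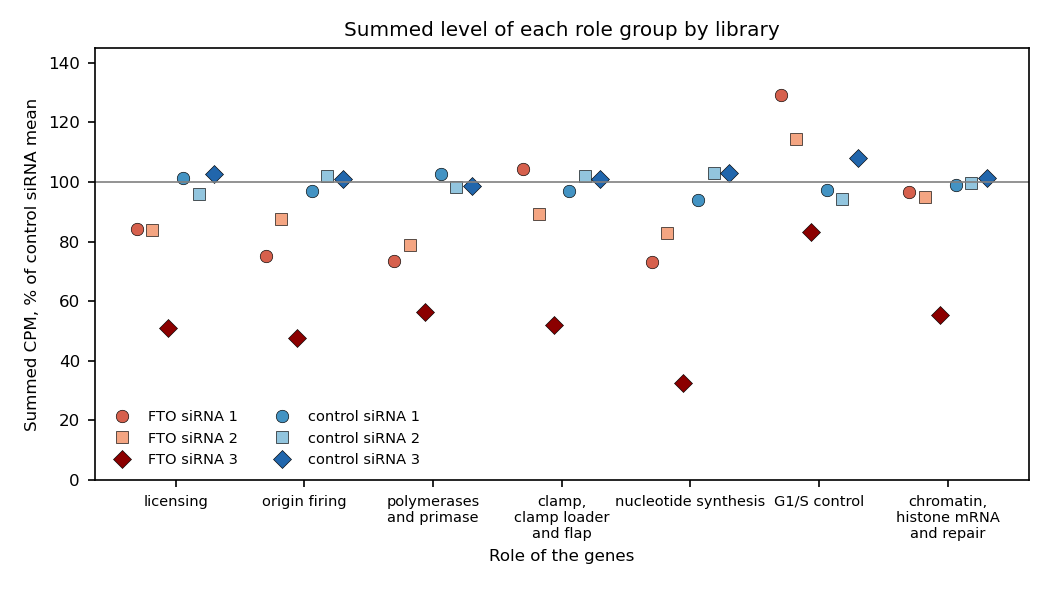
Summed CPM of the genes of each role in each library, as a percentage of the mean of the 3 control siRNA libraries. In FTO siRNA 3 the sums were 32.6% (nucleotide synthesis) to 83.2% (G1/S control), and in FTO siRNA 1 and 2 the G1/S control sum was 129% and 114%.

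None of the 3 G1/S control genes passed, and their median was 0.04. E2F1, the transcription factor that activates many replication genes, had 136, 118 and 89.4 CPM after FTO siRNA, against 99.1, 95.2 and 113 CPM in the controls (0.16 ± 0.18, adjusted p = 0.608). CCNE1, one of the E-type cyclins that drive entry into S phase, had 37.1, 31.8 and 19.0 CPM after FTO siRNA, against 28.7, 28.2 and 28.7 CPM in the controls (0.04 ± 0.23, adjusted p = 0.938). CCNE2, the other, had 7.37, 10.3 and 7.82 CPM after FTO siRNA, against 8.30, 8.47 and 9.30 CPM in the controls (-0.03 ± 0.20, adjusted p = 0.935), and 37.1% of its exon bases overlap other genes. For E2F1 and CCNE1, FTO siRNA 1 and 2 exceeded every control and FTO siRNA 3 lay below every control. For CCNE2, FTO siRNA 1 and 3 lay below every control and FTO siRNA 2 above. The directions of all 3 turned once trends with GC content and length had been taken out, to -0.18 for E2F1, -0.16 for CCNE1 and 0.08 for CCNE2. Across 14936 genes tested, the level relative to the control mean correlated with GC content at Spearman's rho of 0.31, 0.25 and 0.07 in FTO siRNA 1, 2 and 3, a description of libraries that share their controls. The correlation with length was -0.36, -0.18 and -0.02 in FTO siRNA 1, 2 and 3. GC content was 62.5% for E2F1, 52.9% for CCNE1 and 36.9% for CCNE2, where the median was 49.4% over the members. The median over all genes tested was 47.8%. CDT1 (64.91%) and POLD1 (64.97%) were richer in GC than E2F1 and had log2 fold changes of -0.27 and -0.28. Without FTO siRNA 3 these were 0.02 and -0.07, and that of E2F1 was 0.28. The part of GC content and length in these directions was not tested. No test compared these 3 genes with the other members.

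The 5 genes of chromatin assembly, histone mRNA and uracil repair had a median of -0.31, and none passed. UHRF1, which guides maintenance DNA methylation at forks, had 71.6, 83.6 and 61.3 CPM after FTO siRNA, against 97.002, 93.9 and 106 CPM in the controls (-0.46 ± 0.15, adjusted p = 0.0943). Its groups did not overlap, and it fell without FTO siRNA 3 (-0.38, adjusted p = 0.0422), but 25.7% of its 50-base words occur in other genes. UNG, the uracil glycosylase, had 95.4, 97.7 and 66.1 CPM after FTO siRNA against 109, 123 and 95.8 CPM in the controls (-0.34 ± 0.19, adjusted p = 0.272). CHAF1A and CHAF1B, subunits of the chromatin assembly factor that places histones behind the fork, had log2 fold changes of -0.31 ± 0.24 and -0.26 ± 0.26 (adjusted p = 0.425 and 0.566). CHAF1A had 85.0, 91.3 and 46.8 CPM after FTO siRNA, against 93.5, 87.0 and 96.9 CPM in the controls. CHAF1B had 39.8, 37.0 and 18.6 CPM after FTO siRNA, against 40.4, 37.3 and 36.4 CPM in the controls. SLBP, which binds the stem loop of histone mRNAs, had 222, 196 and 103 CPM after FTO siRNA against 187, 191 and 204 CPM in the controls (-0.16 ± 0.26, adjusted p = 0.738). For CHAF1A, CHAF1B, SLBP and UNG the groups overlapped.

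Of 58 other replication genes on a second list, all tested, 5 fell (8.62%), 1 rose and 52 did not pass. Over all genes tested 3.83% fell and 7.53% rose. The median log2 fold change was -0.30 over the 58 and 0.04 over all genes tested. WDHD1, which ties polymerase alpha to the helicase, fell by 0.79 ± 0.16 (adjusted p = 0.0179), with 26.6, 29.4 and 21.6 CPM after FTO siRNA, against 45.4, 44.2 and 44.2 CPM in the controls. TOPBP1, a factor of helicase activation and of the checkpoint, fell by 0.56 ± 0.13 (adjusted p = 0.0334). ATAD5, which unloads the clamp, fell by 0.79 ± 0.19 (adjusted p = 0.0344), and LIG1, the ligase that joins Okazaki fragments, fell by 0.90 ± 0.24 (adjusted p = 0.0463). POLD4, the smallest subunit of polymerase delta, rose by 1.498 ± 0.262 (adjusted p = 0.0112), with 12.4, 9.02 and 17.1 CPM after FTO siRNA, against 4.44, 4.81 and 4.41 CPM in the controls. The groups did not overlap for any of these 5 genes. Over all genes tested, 17.4% lay below the controls without overlap and 19.2% above. Of the exon bases of POLD4, 21.3% overlap another gene. Without FTO siRNA 3, 15 of the 58 fell and 2 rose, where 14.1% of all genes tested fell and 15.9% rose. Without FTO siRNA 2, 8 of the 58 fell, where 3.31% of all genes tested fell. Without FTO siRNA 1, 2 of the 58 fell (2.1% of all genes tested), without control 3, 1 fell (1.7% of all genes tested), and without control 1 or 2, 0 fell (0.602% and 0.679% of all genes tested) and 0 rose. TOPBP1 and WDHD1 did not pass with GC and length trends removed (adjusted p = 0.0729 and 0.0683), and ATAD5 did not pass with upper quartile factors or with no composition factors (adjusted p = 0.0547 and 0.0555).

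In a list of 23 genes of the RB and E2F network, 22 were tested. Of these 4 fell (18.2%), where 3.83% of all genes tested fell, and 18 did not pass. SKP2, the ubiquitin ligase subunit that removes CDK inhibitors at S phase entry, had 112, 138 and 59.5 CPM after FTO siRNA, against 225, 272 and 227 CPM in the controls, and fell by 1.22 ± 0.28 (adjusted p = 0.0281). Among the E2Fs known as repressors, E2F7 fell by 1.06 ± 0.26 (adjusted p = 0.0348) and E2F8 by 0.88 ± 0.24 (adjusted p = 0.0497), while E2F4 (0.06), E2F5 (-0.18) and E2F6 (0.04) did not pass (adjusted p from 0.669 to 0.92). RBL2, the pocket protein p130, fell by 0.89 ± 0.18 (adjusted p = 0.0163), with 18.2% of its exon bases overlapping other genes. Without FTO siRNA 3, 7 of the 22 fell and 1 rose, where 14.1% of all genes tested fell and 15.9% rose. SKP2, E2F7 and E2F8 each did not pass without FTO siRNA 1 or without any 1 of the controls (adjusted p up to 0.115, 0.121 and 0.148). E2F8 also did not pass with a filter at 1 CPM (adjusted p = 0.0518), and RBL2 did not pass without control 1 or 2 (adjusted p up to 0.0913). Of 12 genes for CDK inhibitors, the D cyclins and their partners CDK4 and CDK6, 11 were tested. Of these 2 rose, where 7.53% of all genes tested rose, and 0 fell, where 3.83% of all genes tested fell. CDKN1A, the CDK inhibitor p21, had 52.0, 37.7 and 32.2 CPM after FTO siRNA, against 6.84, 10.2 and 7.67 CPM in the controls, and rose by 2.30 ± 0.24 (adjusted p = 0.00217). CDKN2B, the CDK4 inhibitor p15, had 109.9, 109 and 186 CPM after FTO siRNA, against 35.3, 42.3 and 59.5 CPM in the controls, and rose by 1.56 ± 0.27 (adjusted p = 0.0108). CDKN1A was highest in FTO siRNA 1 and lowest of its group in FTO siRNA 3, and CDKN2B was highest in FTO siRNA 3 but did not pass without control 1 or 2 (adjusted p up to 0.065). Beside these lists, 6 of 30 mitosis genes (20.0%) fell with a median of -0.50, where 3.83% of all genes tested fell (13 of 30 without FTO siRNA 3, where 14.1% of all genes tested fell), and their summed level was 73.6%, 78.9% and 46.8% of the control mean in FTO siRNA 1, 2 and 3. The summed level of the replication members was 87.1%, 86.6% and 50.6%.

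The pattern shared by the members was the low level in FTO siRNA 3. Their mean standardized log2 level was 0.11, 0.14 and -1.79 in FTO siRNA 1, 2 and 3, and between 0.48 and 0.57 in the controls. Correlation of each member with the mean of the others over the 6 libraries was lowest for CCNE2 (0.34), E2F1 (0.40) and POLE (0.71), and highest for CDC6 and RFC3 (0.998 each). Outside the list, the 5 tested genes whose log2 levels followed this mean most closely over 6 libraries were POLR2E, HASPIN, ELAVL1, CCNF and H2AX, with Pearson correlations of 0.998 to 0.999. POLR2E encodes a subunit shared by the RNA polymerases, HASPIN a histone kinase of mitosis, ELAVL1 an RNA-binding protein, CCNF cyclin F and H2AX a histone variant. None of these 5 passed the threshold (adjusted p from 0.272 to 0.365).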

How the data were processed

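Raw counts per Ensembl gene, 1 table per library, were deposited by the authors without normalization. Per the submitters' processing notes the tools were TopHat2 2.0.11, TopHat and HTSeq and the builds hg19 and GRCh37, with no role stated. The sources used here do not say how strand and multiply mapped reads were handled, so genes with near copies or with overlapping neighbours are uncertain.

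Of 60483 identifiers, 56753 matched GENCODE 29 (symbols, chromosomes, transcript length, GC content). Genes kept by filterByExpr were scaled with TMM factors, and glmQLFit and glmQLFTest of edgeR 4.0.16 (R 4.3.3) gave two-sided tests, with Benjamini-Hochberg adjustment over 15025 genes. CPM are TMM-scaled. Shared words are 50-base words of a gene's longest transcript found in a gene elsewhere. The steps were tested on simulated data. Members and lists were chosen with earlier results of these data known. The text names FTO, every member, up to 6 genes past the threshold of each related list (1 of them is not reported here) and the 5 genes most alike over the libraries. Marker genes named singly were chosen after their values were seen. Alternatives are in the closing section, with DESeq2 1.42.0 and limma 3.58.1. Every pair of libraries differed by more than counting noise (chi-square over degrees of freedom at least 8.45).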

Additional observations from a re-analysis of the deposited data

How the results depend on the processing

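The median of the members stayed negative in every alternative run, between -0.54 (replicate block with GC and length trends removed) and -0.19 (without FTO siRNA 3), against -0.37 as reported, and no alternative called a member higher. RLE, upper quartile or no composition factors, other filters and limma-voom gave 3 or 4 members that fell. DESeq2 gave 5, with 11 other replication genes and 1027 genes in all that fell. With GC and length trends removed 5 members fell, MCM2, RFC5 and UHRF1 in place of POLE (adjusted p = 0.0655). Leaving out each library in turn gave 0 to 9 members that fell, 0 to 15 other replication genes that fell and 0 to 2 that rose, and 94 to 2152 genes tested that fell and 236 to 2430 that rose. The lowest counts over genes tested came without control 1 and the highest without FTO siRNA 3. LIG1, TOPBP1 and ATAD5 lost their calls without FTO siRNA 1 or without any 1 of the controls, WDHD1 without any 1 of the controls, and POLD4 without control 1 or 2. ATAD5 also lost its call without FTO siRNA 2. With the replicate block E2F8 (adjusted p = 0.0744), TOPBP1 (0.108) and ATAD5 (0.0886) did not pass, and with trends removed as well neither did WDHD1 (0.112) and POLD4 (0.0571). Deviations from the group mean correlated at -0.15, -0.07 and -0.27 between same-numbered libraries. With 3 libraries per group, and FTO siRNA 3 apart from the others, these values cannot decide whether the replicate numbers pair the samples. With the number as a replicate block 0 members, 3 other replication genes and 305 genes tested fell and 736 rose, and with GC and length trends removed as well 0, 3, 297 and 621, with 0 other replication genes that rose. Only members with no call changed sign. CCNE1 came to -0.0120 without a filter, -0.0250 in limma-voom, -0.0141 with the replicate block, -0.16 with GC and length trends removed and -0.19 with both. CCNE2 came to 0.0114 with upper quartile factors, 0.0848 with trends removed and 0.0720 with the block as well, and E2F1 to -0.18 with either. With 1 library left out, CCNE1 ranged from -0.18 to 0.24, CCNE2 from -0.22 to 0.0435, CDT1 from -0.49 to 0.0213, RFC2 from -0.25 to 0.11, RFC4 from -0.33 to 0.00228, FEN1 from -0.41 to 0.0783 and SLBP from -0.39 to 0.0847. Causes were not tested.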
